A study of Mus musculus with 6 samples.

Results

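The host genes of the mouse miR-26 loci are Ctdspl, Ctdsp1 and Ctdsp2, and their transcripts were followed here on every array probe that carries one of these names. These are 3 of the 34797 genes named on the array. They have 6 probes in all, with 1 for Ctdsp1, 2 for Ctdspl and 3 for Ctdsp2. The probes were taken by gene name and not by any measured value, but the genes were chosen with earlier results of these data known. Each probe is described separately, because probes of one gene lie at different positions of its transcript. The samples were RNA of the mouse pre-B cell line 1676, which lacks the adaptor proteins SLP-65 and LAT and was kept in IL-7. All cells had been transduced with a retroviral vector and selected with puromycin. Groups of 2 arrays each carried the empty control vector, a vector for human miR-26a-2 (called miR-26a below) or a miR-26 sponge, an mRNA with repeated miR-26 binding sites. The replicates came from 2 experiments with separately made transduced cells of this single line, and all 6 arrays lay on 1 slide. The arrays of each experiment lay in a slide column of their own, so experiment and column cannot be told apart. The titles of the control arrays also name records of an earlier deposit, and their pairing with the other arrays rests on the replicate numbers and the methods.

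Ctdspl, Ctdsp1 and Ctdsp2 encode small phosphatases that remove phosphate from the C-terminal domain (CTD) of RNA polymerase II. They are known as partners of the repressor REST, which keeps neuronal genes silent in other tissues, and as phosphatases of the retinoblastoma protein and of SMAD proteins. Each of these genes carries a miR-26 hairpin within it, so that host transcript and microRNA can be made from the same primary RNA. A microRNA chiefly binds mRNAs through its seed, bases 2 to 8, and lowers their level or translation.

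The mature microRNAs are shown first because the vector adds miR-26a and the sponge binds both. The sequences are those of RefSeq, with the seed in capitals.
mmu-miR-26a-5p: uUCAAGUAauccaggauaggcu
mmu-miR-26b-5p: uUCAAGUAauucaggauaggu
The seed is identical in both. Counted from the 5′ end, with the miR-26a base first, they differ by C11U and C21U, and miR-26a has 22 bases against 21 in miR-26b.

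The hairpins are shown because they place each microRNA in its host. The 5p arm is in capitals, and the positions are those of GRCm38.p6, all on the plus strand.
Mir26a-1, in Ctdspl, chr9:119031796-119031885: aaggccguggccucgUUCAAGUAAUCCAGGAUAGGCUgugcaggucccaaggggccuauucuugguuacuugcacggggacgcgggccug
Mir26a-2, in Ctdsp2, chr10:126995530-126995613: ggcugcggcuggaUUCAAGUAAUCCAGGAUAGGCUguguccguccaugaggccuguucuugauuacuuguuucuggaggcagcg
Mir26b, in Ctdsp1, chr1:74394310-74394394: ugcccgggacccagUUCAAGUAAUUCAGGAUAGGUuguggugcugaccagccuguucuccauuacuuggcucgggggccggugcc
Each hairpin lies inside the RefSeq extent of its host and on the strand of its host. The same mature miR-26a comes from Ctdspl and Ctdsp2, and Ctdsp1 carries the only copy of miR-26b.

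RefSeq gives a start window (250 bases before to 50 after a start) for each host, and 2 for Ctdsp2. The main start windows were rich in CG dinucleotides. That of Ctdspl held 43, that of Ctdsp1 held 34 and the first of Ctdsp2 held 25, where the median over 32851 windows was 7. The second Ctdsp2 window held 9 and contained all 84 bases of the Mir26a-2 hairpin, which begins 83 bases before that start. The second annotated start of Ctdsp2 thus falls on the last base of the hairpin.

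Every array showed the 6 host probes well above background, none was saturated, and all were among the 20168 probes tested. Values below are quantile-normalized intensities on the log2 scale, and changes are differences of these values. In each comparison a probe was called changed when limma's Benjamini-Hochberg adjusted p over all tested probes was below 0.05. An intensity depends on the probe as well as on the RNA, so the level of one probe was not compared with that of another, and the 3 genes were not ranked by level. In bulk RNA, fewer cells of a type and less RNA per cell cannot be told apart.

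**Figure D1:**
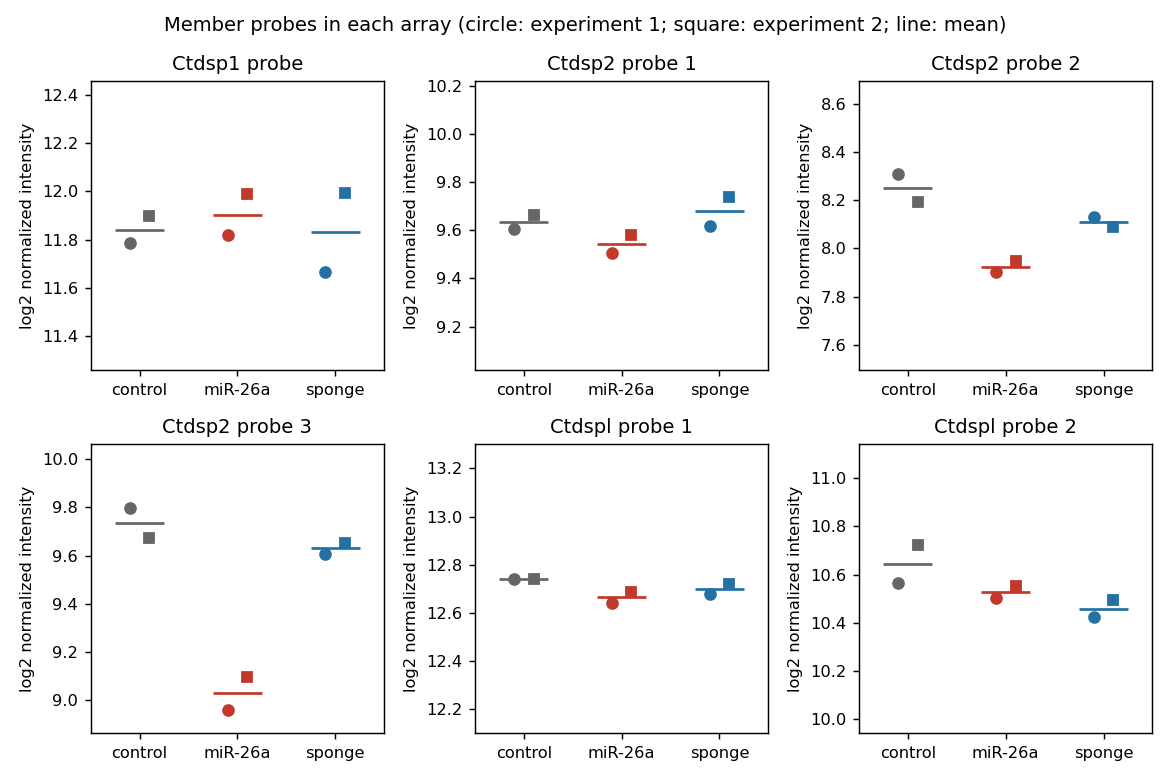
Log2 normalized intensity (vertical axes, all spanning the same range) of the 6 host probes in the control, miR-26a and sponge arrays; circles are experiment 1, squares are experiment 2 and lines are means of 2 arrays. Ctdsp2 probe 3 stood at 8.96 and 9.10 in the miR-26a arrays and at 9.61 or above in the other 4 arrays.

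One probe of Ctdsp2 fell in cells with miR-26a, and the probes of Ctdspl and Ctdsp1 were not called. The 3 probes of Ctdsp2, the host of Mir26a-2, are numbered here from upstream to downstream (mm9 coordinates of the array design). Probe 1 (A_55_P2088325) covers chr10:126434210-126434269 and probe 2 (A_52_P432685) covers chr10:126434239-126434298, so that they share 31 of their 60 bases. Probe 3 (A_55_P2088331) covers chr10:126436972-126437031, 2.73 kb downstream of probe 2. No transcript annotation of this build was used here, so the exon or untranslated region under each probe is not given.

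Ctdsp2 probe 3 read 9.80 and 9.67 in the control arrays, 8.96 and 9.10 in the miR-26a arrays, and 9.61 and 9.65 in the sponge arrays (log2 intensity). The miR-26a arrays were the lowest pair and did not overlap either of the other groups. The processed scanner signals of this probe, before normalization between arrays, were 898.7 and 782.2 for control, 490.7 and 532 for miR-26a and 782.5 and 867.3 for sponge. With miR-26a the probe fell by 0.71 on the log2 scale (SE 0.09, 95% confidence interval -0.92 to -0.49, adjusted p = 0.0114 in limma), to 0.61 of the control level. The fall was -0.84 in experiment 1 and -0.58 in experiment 2. Of all tested probes, 340 (1.69%) had a lower change. The change was -0.60 without control replicate 1 and -0.81 without control replicate 2. The call was lost in both fits, which keep a single control array, as were most calls over all tested probes.

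Ctdsp2 probe 2 read 8.31 and 8.19 in control, 7.90 and 7.95 in miR-26a, and 8.13 and 8.09 in sponge arrays. The 3 pairs of arrays did not overlap, with control highest and miR-26a lowest. Its change with miR-26a was -0.33 (SE 0.07, 95% confidence interval -0.51 to -0.14), which just missed the threshold (adjusted p = 0.0528). Of 16 alternatives, it passed in limma with array weights (adjusted p = 0.0387) and after normexp background correction (adjusted p = 0.0433). In the other 14 it was not called. The adjusted p was 0.129 in limma without the replicate block and 0.346 in an unpaired t-test.

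Ctdsp2 probe 1, which shares bases with probe 2, read 9.60 and 9.66 in control, 9.51 and 9.58 in miR-26a, and 9.62 and 9.74 in sponge arrays. The miR-26a arrays were again lowest, by a small margin. The change with miR-26a was -0.09 (95% confidence interval -0.26 to 0.08, adjusted p = 0.452), an interval that excludes a fall as large as that of probe 3. The array design assigns probes 1 and 3 to one RefSeq transcript of Ctdsp2 and probe 2 to another.

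**Figure D2:**
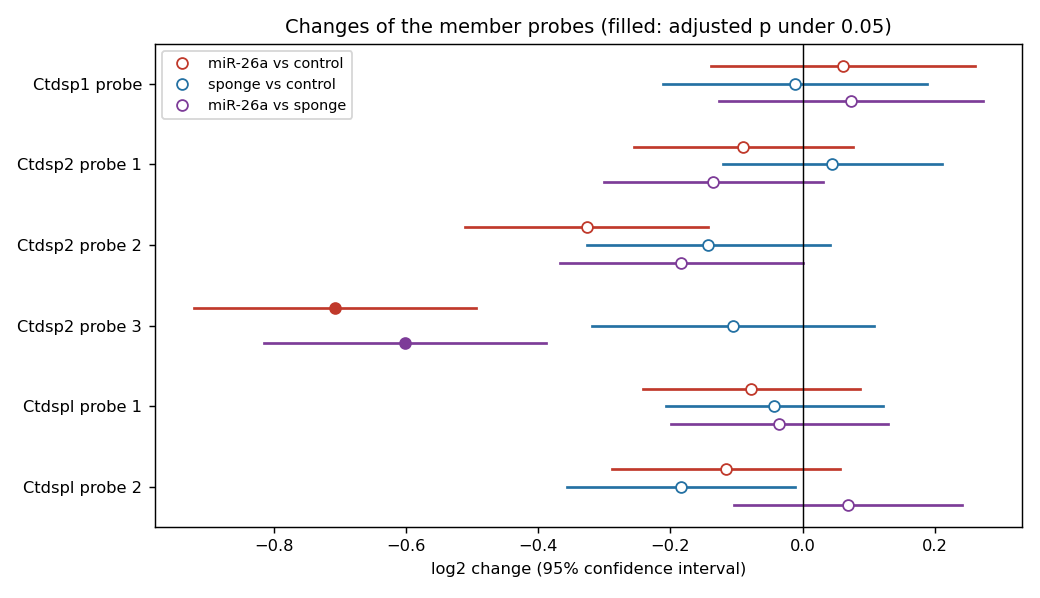
Log2 changes (horizontal axis) of the 6 host probes with their 95% confidence intervals in the 3 comparisons; filled points passed an adjusted p of 0.05. Ctdsp2 probe 3 was the only probe called, at -0.71 for miR-26a against control and -0.60 for miR-26a against sponge.

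The 3 changes of Ctdsp2 were therefore -0.09, -0.33 and -0.71 from the upstream to the downstream probe. Their differences were tested within each array over 6551 pairs of tested probes of the same gene, from 3764 genes. This test was chosen after these values were seen. Genes with many tested probes, or with probes on different chromosomes or strands, were left out, as were probes without a position. The log2 difference of probe 3 minus probe 1 was 0.19 and 0.01 in control, -0.55 and -0.49 in miR-26a, and -0.01 and -0.09 in sponge arrays. It was thus lower in both miR-26a arrays than in any other array. The change of probe 3 differed from that of probe 1 by -0.62 (SE 0.10, 95% confidence interval -0.86 to -0.38, unadjusted p = 0.000812), and 0.977% of pairs differed by more. The adjusted p of 0.118 did not pass, and no pair in this set did (0% of pairs called, 689 at an unadjusted p under 0.05). For probe 3 against probe 2 the difference was -0.38 (unadjusted p = 0.00459, adjusted p = 0.223 in limma), and 4.61% of pairs differed by more. Probes 2 and 1, which share bases, also differed, by -0.24 (95% confidence interval -0.46 to -0.02). The unadjusted p was 0.0384 and the adjusted p 0.442 in limma, and 14.3% of pairs differed by more. When the probes of each gene were averaged instead, Ctdsp2 fell by 0.37 (SE 0.07, adjusted p = 0.0317 in limma over gene means). This mean joins unlike changes of -0.09, -0.33 and -0.71, of which only that of probe 3 was called. It counts probes 1 and 2 separately although they share bases.

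**Figure D3:**
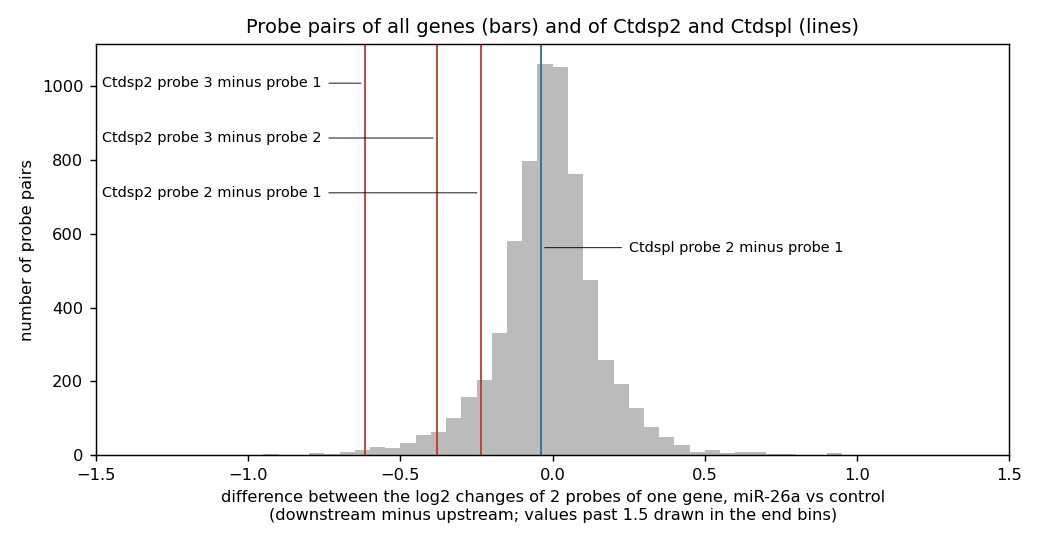
Number of probe pairs (vertical axis) by the difference between the miR-26a changes of 2 probes of one gene (horizontal axis, log2, downstream minus upstream); lines mark the pairs of Ctdsp2 and Ctdspl. Ctdsp2 probe 3 minus probe 1 lies at -0.62, far to the left of most pairs, and the Ctdspl pair at -0.04 lies near the middle.

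Ctdspl, the host of Mir26a-1, has probe 1 (A_55_P2173968) at chr9:118949865-118949924 and probe 2 (A_52_P473953) at chr9:118952833-118952892, 2.97 kb apart. Probe 1 read 12.74 in both control arrays, 12.64 and 12.69 in miR-26a, and 12.68 and 12.72 in sponge arrays. The control arrays were highest, but the whole range over 6 arrays was narrow. The change with miR-26a was -0.08 (95% confidence interval -0.24 to 0.09, adjusted p = 0.512). Probe 2 read 10.57 and 10.72 in control, 10.50 and 10.55 in miR-26a, and 10.42 and 10.49 in sponge arrays. Again both control arrays were highest. The change with miR-26a was -0.12 (95% confidence interval -0.29 to 0.06, adjusted p = 0.349), and the 2 probes differed by -0.04 (adjusted p = 0.959).

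Ctdsp1, the host of Mir26b, has a single probe (A_55_P2034260) at chr1:74443739-74443798. It read 11.78 and 11.90 in control, 11.82 and 11.99 in miR-26a, and 11.67 and 11.99 in sponge arrays. The groups overlapped, and in each of them the array of experiment 2 was the higher. The change with miR-26a was 0.06 (95% confidence interval -0.14 to 0.26, adjusted p = 0.682), and without control replicate 2 it was -0.01.

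In the comparison of miR-26a with control, 1 of 6 host probes was called, where 9.64% of all tested probes were, and it was lower, as were 5.14% of all tested probes. The miR-26a arrays lay below both control arrays for 5 of 6 host probes, as they did for 22.9% of all tested probes. These were the 3 probes of Ctdsp2, of which probes 1 and 2 share bases, and the 2 of Ctdspl. Probes of one gene are not independent, so this is not a count of genes. The median change of the host probes was -0.10 and that of all probes was 0.01.

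The sponge binds miR-26a and miR-26b, and the comparison of sponge with control asked what follows when the cells' own miR-26 is held back. The control arrays carried an empty vector and no scrambled sponge. Effects of the sponge RNA itself therefore cannot be told apart from those of bound miR-26. No host probe was called, where 0.00992% of all tested probes (2 of 20168) were; at an unadjusted p under 0.05 there were 1759 lower and 1488 higher probes. The largest host change was in Ctdspl probe 2, at -0.18 (95% confidence interval -0.36 to -0.01, unadjusted p = 0.0400, adjusted p = 0.294). The log2 difference was -0.04 for Ctdspl probe 1 and -0.01 for the Ctdsp1 probe, of which the latter turned to 0.05 with scaling to the 75th percentile, as did Ctdspl probe 1 to 0.03. For Ctdsp2 probes 1, 2 and 3 the differences were 0.05, -0.14 and -0.11. For Ctdsp2 probe 3 the 95% confidence interval was -0.32 to 0.11, so a rise as large as the fall with miR-26a lies outside it. The sponge arrays lay below both control arrays for 4 of 6 host probes, against 20.4% of all tested probes. These were Ctdsp2 probes 2 and 3 and both probes of Ctdspl, so they are not independent of each other.

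Between miR-26a and sponge arrays, Ctdsp2 probe 3 was lower with miR-26a by a change of -0.60 (SE 0.09, 95% confidence interval -0.82 to -0.39, adjusted p = 0.0127 in limma). It was the only one of 6 host probes called, where 16.8% of all tested probes were (8.49% lower with miR-26a). For Ctdsp2 probes 2 and 1 the differences were -0.18 (adjusted p = 0.145) and -0.13 (adjusted p = 0.213). The 2 groups did not overlap for 4 of 6 host probes (the 3 of Ctdsp2, lower with miR-26a, and Ctdspl probe 2, higher), against 50.9% of all tested probes. The difference between the changes of Ctdsp2 probes 3 and 1 was -0.47 (adjusted p = 0.0957). That between probes 3 and 2 was -0.42 (adjusted p = 0.0929), where 0.29% of the tested probe pairs were called. The 3 comparisons share arrays, so their values for one probe are not independent of each other. For Ctdsp2 probe 3 the change was -0.62 without sponge replicate 1 and -0.58 without sponge replicate 2. The call was lost in both fits, which keep a single sponge array, as were most calls over all tested probes.

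The 60 bases of the host probes were searched on the probe strand for the words that pair with the miR-26 seed. None of the 6 held ACTTGA, the complement of seed bases 2 to 7, which 1.96% of the 55681 probes on the array hold. It follows that none held the longer TACTTGA (0.431% of probes), ACTTGAA (0.700%) or TACTTGAA (0.174%), which contain it. The hexamer AATAAA, which commonly marks the end of an mRNA, was found in 2 host probes, Ctdsp2 probe 3 and Ctdspl probe 2, the most downstream probe of either gene, and in 10.1% of all probes. Ctdsp2 probe 3 was also the most AT-rich host probe, with 28.3% G and C, against 36.7% and 35.0% for Ctdsp2 probes 1 and 2, 46.7% and 41.7% for Ctdspl, 53.3% for Ctdsp1 and a median of 43.3% over all probes. These are descriptions of the probes only, and the rest of the transcripts was not searched.

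The profiles most like each host over the 6 arrays, by the root mean square difference of centred log2 values, were those of Gga1, Fxr1 and Wipf1 for Ctdspl probe 1, Wbp2, 5930403N24Rik and Trim59 for Ctdsp1, and Ubb, Mrpl49 and Itm2b for Ctdsp2 probe 1. Their differences were 0.0032 to 0.0151 for Ctdspl, 0.0162 to 0.0197 for Ctdsp1 and 0.0158 to 0.0163 for Ctdsp2. The brightest tested probe of each host was used, which for Ctdsp2 is a probe that was not called. The hosts themselves varied little (SD over the 6 arrays 0.04, 0.13 and 0.08), and the arrays share a slide.

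Genes beside the hosts, within 250 kb of a host probe on the array design, were examined next, each by its brightest tested probe. Near Ctdspl 5 named genes were tested and none was called in any of the 3 comparisons. Over all tested probes 9.64% were called with miR-26a, 0.00992% with sponge and 16.8% between the 2, so few calls would arise among 5 genes. Differences for miR-26a ranged from -0.15 to 0.16 (to 0.28 over all 6 of their tested probes). Near Ctdsp1 11 genes were tested, and Tmbim1, which encodes a membrane protein of the TMBIM family, was the only one called, where 9.64% of all tested probes were. Tmbim1 read 9.22 and 8.98 in control, 9.78 and 9.53 in miR-26a, and 9.28 and 9.03 in sponge arrays. Within each experiment the miR-26a array was the highest. Tmbim1 rose by 0.56 with miR-26a (SE 0.06, adjusted p = 0.0106 in limma). It was also called higher with miR-26a than with sponge, by 0.50 (adjusted p = 0.00990), beside 16.8% of all tested probes called.

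Near Ctdsp2 11 genes were tested, and Mettl1, a tRNA methyltransferase gene 45.4 kb from the nearest Ctdsp2 probe, was the only one called with miR-26a, again beside 9.64% of all tested probes. Mettl1 read 9.50 and 9.14 in control, 10.09 and 9.75 in miR-26a, and 9.58 and 9.24 in sponge arrays. The miR-26a array was the highest of each experiment. Mettl1 rose by 0.60 (SE 0.07, adjusted p = 0.00903 in limma), the opposite direction to Ctdsp2 probe 3. Tspan31, a tetraspanin gene 67.4 kb away, was at -0.40 with miR-26a against control (adjusted p = 0.0611) and was lower with miR-26a than with sponge, by a change of -0.65 (adjusted p = 0.0144). March9, a ubiquitin ligase gene 56.1 kb away, was higher with miR-26a than with sponge by 0.34 (adjusted p = 0.0439), with changes against control of 0.01 for miR-26a and -0.33 for sponge (adjusted p = 0.223). Mettl1 was also higher with miR-26a than with sponge, by 0.51 (adjusted p = 0.00959). Against control the only called neighbour of Ctdsp2 thus rose. Between miR-26a and sponge 1 of 11 was called lower and 2 higher, beside 16.8% of all tested probes called.

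**Figure D4:**
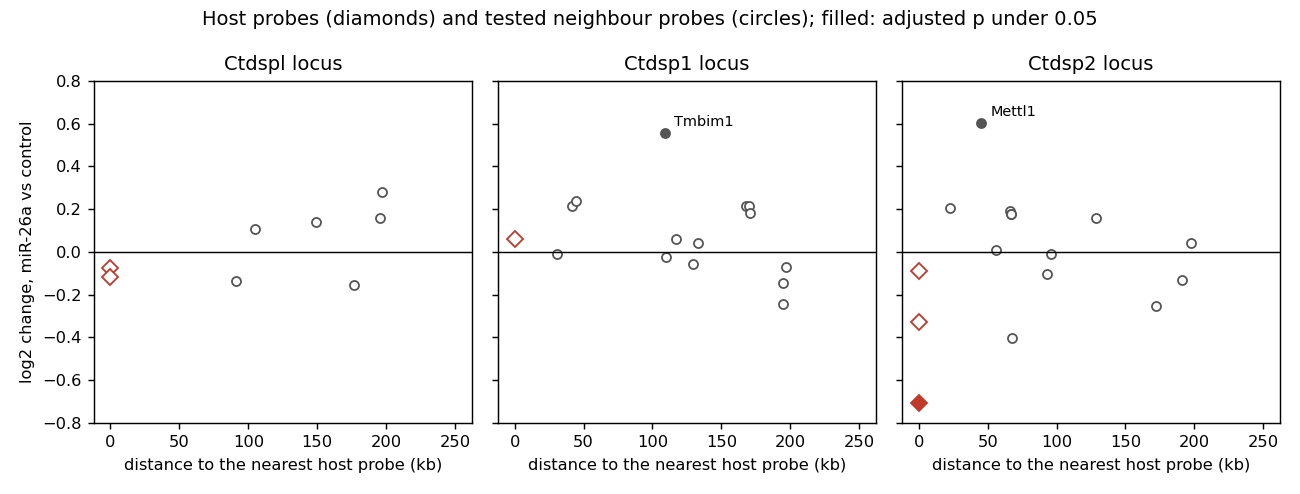
Log2 change for miR-26a against control (vertical axis) by distance to the nearest host probe (horizontal axis, kb) at the 3 host loci; diamonds at 0 kb are host probes, circles are tested probes of neighbouring genes and filled marks passed an adjusted p of 0.05. Ctdsp2 probe 3 at -0.71 is the lowest point of the Ctdsp2 panel, and the called neighbours Tmbim1 (0.56) and Mettl1 (0.60) rose.

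Genes that act with the hosts were taken from 5 lists, each gene by its brightest tested probe. Of 8 other CTD phosphatases and relatives, all tested, 1 was called lower with miR-26a, where 5.14% of all tested probes were, and the median difference was 0.03. It was Ublcp1, a phosphatase of the nuclear proteasome. Ublcp1 read 11.90 and 12.13 in control, 11.49 and 11.86 in miR-26a, and 11.92 and 12.18 in sponge arrays. Within each experiment the miR-26a array was lowest. It fell by 0.34 (SE 0.07, adjusted p = 0.0470), and both its probes were called. With sponge no gene of this list was called. Between miR-26a and sponge Ublcp1 was lower with miR-26a, by a difference of -0.37 (adjusted p = 0.0267). Ctdnep1, a phosphatase of the nuclear envelope, was higher with miR-26a than with sponge by 0.38, with changes against control of -0.01 for miR-26a and -0.39 for sponge (adjusted p = 0.203).

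Among 13 CTD kinases, cyclins and RNA polymerase II genes, all tested, 1 was called lower and 1 higher with miR-26a, beside 9.64% of all tested probes called, and the median difference was -0.01. Cdk8, the kinase of the Mediator complex, read 12.50 and 12.45 in control, 11.91 and 11.86 in miR-26a, and 12.59 and 12.64 in sponge arrays. The miR-26a arrays lay well below the other 4. Cdk8 fell by 0.59 (SE 0.07, adjusted p = 0.0108), and 2 of its 3 probes were called. Ccnt2, a cyclin partner of the elongation kinase Cdk9, read 5.84 and 5.79 in control, 6.24 and 6.19 in miR-26a, and 5.92 and 6.04 in sponge arrays. Ccnt2 rose by 0.40 (SE 0.08, adjusted p = 0.0366), and its intensity was low. Polr2a, which encodes the subunit that carries the CTD, was not called in any of the comparisons.

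Of 12 reported substrates of these phosphatases 9 were tested, and Smad1, Snai1 and Twist1 were not well above background on any array. With miR-26a 1 was called lower and 2 higher, beside 9.64% of all tested probes called, and the median difference was 0.08. Smad3, a mediator of TGF-beta signals, read 9.19 and 9.16 in control, 8.55 and 8.56 in miR-26a, and 9.16 and 9.14 in sponge arrays. The miR-26a arrays stood clearly below all others, and Smad3 fell by 0.62 (SE 0.07, adjusted p = 0.00856). Smad5, a mediator of BMP signals, rose by 0.36 (SE 0.08, adjusted p = 0.0486). Myc, the growth regulator, read 11.79 and 11.31 in control, 12.34 and 11.92 in miR-26a, and 12.00 and 11.36 in sponge arrays. It rose by 0.58 (SE 0.08, adjusted p = 0.0154). Between miR-26a and sponge 2 were called lower and 3 higher, beside 16.8% of all tested probes called. Among them was Rbl2, a relative of the retinoblastoma protein, which was higher with miR-26a by 0.36 (adjusted p = 0.0288). Rb1, which encodes the retinoblastoma protein itself, was at -0.28 against control (adjusted p = 0.0708) and was called lower against sponge, at -0.31 (adjusted p = 0.0436).

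**Figure D5:**
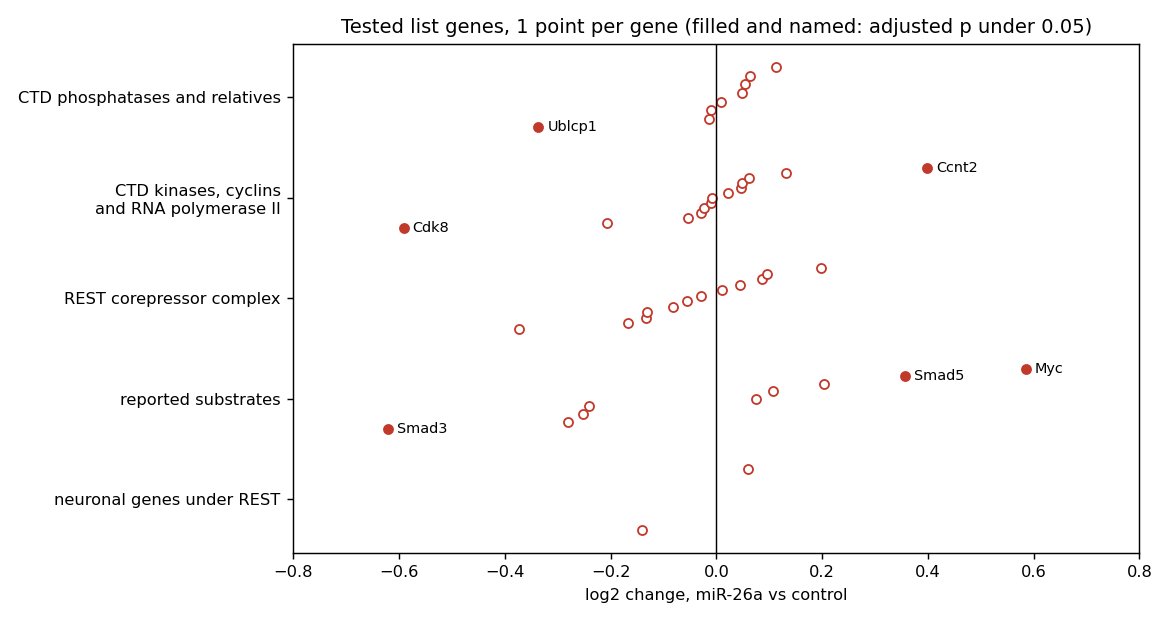
Log2 change for miR-26a against control (horizontal axis) of the tested genes of 5 lists (rows, 1 point per gene); filled and named points passed an adjusted p of 0.05. Cdk8, Smad3 and Ublcp1 lie to the left, Ccnt2, Smad5 and Myc to the right, and no gene of the REST complex or of the neuronal list was called.

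The REST corepressor complex, through which the hosts are known to act on neuronal genes, had no called gene among 12 tested in any comparison. Its largest change with miR-26a against control was that of Rcor2, a corepressor, at -0.37 (adjusted p = 0.123), and for Rest itself the difference was 0.09. Between miR-26a and sponge Rcor2 was at -0.48 and just missed the threshold (adjusted p = 0.0518). Polr2a, Rb1 and Rest are named for their roles and were chosen after their values were seen. Of 12 neuronal genes under REST only Snap25 and Syp passed the filter on dim probes, and neither was called. Of the 44 genes tested over the 5 lists, 6 (13.6%) were called by limma with miR-26a, 0 with sponge (3 at an unadjusted p under 0.05) and 9 (20.5%) between miR-26a and sponge. Over all tested probes 9.64%, 0.00992% and 16.8% were called. The list genes lost their calls with miR-26a when either control array was left out, as did most called probes of the whole array. Such fits keep a single control array.

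The cells carried the markers of their type: all 12 pre-B markers were tested, and Rag1, Rag2 and Dntt, which act in receptor gene rearrangement, fell with miR-26a, Rag2 by 3.36 on the log2 scale. Of 8 myeloid markers 4 were tested, and Lyz2 and Mpo were among those not tested. Cd68 rose by 0.33 with miR-26a (adjusted p = 0.0421), the brightest probes of Csf1r, Itgam and Elane were at -0.04, 0.06 and -0.02, and the dimmer Itgam probe was called lower at -0.82. The summed intensity of the 4 tested myeloid markers was 3860 to 4940 in control arrays. It was 4230 to 4980 in miR-26a and 3300 to 4770 in sponge arrays. That of the 12 pre-B markers was 488000 or more in every array. The sums cover unlike numbers of genes and unlike probes, so they do not measure the share of each cell type. No T-cell marker of 3 tested was called, the largest difference being that of Lck at -0.44 (adjusted p = 0.117), and no erythroid marker passed the filter. Their part in the changes of the host genes was not tested. Blnk, which encodes SLP-65, and Lat were well above background on every array. Blnk was called lower with miR-26a against control (-0.49, adjusted p = 0.0275) and against sponge (-0.61, adjusted p = 0.0123), and Lat was not called. Since the deleted parts are not given in the sources used here, their probes do not check the genotype. No probe on the array is named for a miR-26 gene, so the level of the microRNA was not measured here. The number of spots well above background ranged from 28823 to 29800 of 59305 per array.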

How the data were processed

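RNA of 6 samples was hybridised to one-colour Agilent mouse arrays. The authors deposited scanner output of Agilent Feature Extraction (version 10.7.1.1 per the labels), whose processed intensity is background-subtracted, and a table of linear intensity values whose quartiles agree between arrays; their methods state quantile normalization. Names and mm9 positions are as the array design gives them. Here processed signals of non-control spots were quantile-normalized and log2-transformed, and unflagged spots of a probe were averaged. Probes entered the test if 1 or more arrays showed them well above background and 4 or more gave a signal over 50, which left 20168 of 55681 probes; the methods give this number of arrays unclearly. The model, fitted in limma 3.58.1 (R 4.3.3), took all 6 arrays with group and experiment as terms, which follows the authors' normalization to the control of each experiment. p-values were adjusted over all tested probes by the Benjamini-Hochberg method. Same-numbered arrays deviated together from their group means (correlations across probes 0.38, 0.59 and 0.45), so the experiment was kept as a block. With 2 arrays per group the number of arrays limits the precision. Replicates of a group correlated at 0.996 to 0.997.

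The members and the gene lists were chosen with earlier results of these data known. All host probes are named; of each list and locus, genes called in a comparison are named, up to 4 by size of change, or else the gene with the largest change; for likeness, the 3 nearest named probes to the brightest tested host probe. A list gene that this rule would name is not reported here. The test of probe pairs was chosen after the data were seen. The scripts were tested on simulated data. Scaling, background correction, filters, the block, array weights, flagged spots, an unpaired t-test (the study names one for other data and no test for its arrays), the deposited values and each array left out were tried as alternatives. Sequences came from RefSeq (GRCm38.p6), whose coordinates were not mixed with those of the array.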

Additional observations from a re-analysis of the deposited data

How the results depend on the processing

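Over the 16 alternatives, the change of Ctdsp2 probe 3 with miR-26a kept its direction (-0.81 to -0.60). It lost its call with no filter on dim probes (-0.71, adjusted p = 0.250) and in an unpaired t-test (-0.71, adjusted p = 0.315), and without either control array (leaving out 1 array each time gave -0.81 to -0.60). Against sponge the same probe ranged from -0.69 to -0.51 and lost its call under the same 2 settings (-0.60 each, adjusted p = 0.208 and 0.298) and without either sponge array. Without the replicate block both calls stood, at -0.71 (adjusted p = 0.0327) and -0.60 (adjusted p = 0.0300). Ctdsp2 probe 2 gained a call with miR-26a under array weights (-0.33) and normexp background correction (-0.28), so 2 host probes were called there. Calls over all 20168 tested probes also rose there, from 1944 to 2675 with array weights and 2295 with normexp. With no filter, and in the unpaired t-test, 0 host probes were called with miR-26a and 0 against sponge, and the range over left-out arrays was 0 to 1 for both comparisons.

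Some small changes that were not called reversed their sign. For sponge against control these were Ctdsp1 with scaling to the 75th percentile (0.052), with normexp (0.0195) and with arrays left out (-0.104 to 0.081), Ctdspl probe 1 with that scaling (0.030), and Ctdsp2 probe 3 with arrays left out (-0.21 to 0.0003). Ctdsp1 also reversed with arrays left out for miR-26a against control (-0.0057 to 0.130) and against sponge (-0.019 to 0.166). The scaling to the 75th percentile moved the median of all probes to 0.02, 0.03 and 0.01 in the 3 comparisons.

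The counts over all probes depended strongly on the settings. Called probes for miR-26a against control (1944) became 311 with no replicate block, 581 with probes above background on all 6 arrays, 0 with no filter, 0 in the unpaired t-test and 104 to 1599 with arrays left out. Those for miR-26a against sponge (3381) became 997, 1530, 0, 0 and 410 to 2436 under the same settings. For sponge against control (2) they were 4 with the 75th percentile, 36 with normexp, 10 where 2 arrays above 50 sufficed, 0 with the stricter filter, 0 with none, 0 in the unpaired t-test and 0 to 35 with arrays left out. List genes called with miR-26a (6) became 2 without the block, 2 with the stricter filter, 0 with none, 0 in the unpaired t-test and 0 to 4 with arrays left out. Against sponge (9) they became 3, 2, 0, 0 and 0 to 6. Unadjusted p-values under 0.05 numbered 2679 for miR-26a against control, 1292 for sponge against control and 2726 for miR-26a against sponge in the unpaired t-test, and 6514, 4307 and 7656 with no filter. At the study's filters the unpaired t-test took 689 probes reduced by at least 20% with miR-26a (unadjusted p limit 0.05), Ctdsp2 probes 2 and 3 among them, and 223 probes increased by at least 20% with sponge (unadjusted p limit 0.1), with no host probe. The cause of these differences was not tested. No measure of miR-26 itself or of translation was analysed here.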
